A study of Mus musculus with 16 samples.

Results

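Genes of antigen presentation were followed across the colons of mice that differed in what lived in their gut. They were chosen by name, as 7 symbols in a deposited table of log2 values for 1793 genes: H2-Aa, H2-Ab1, H2-DMb1 and Cd74 of the class II route, the transactivators Ciita and Nlrc5, and the immunoproteasome subunit Psmb9. All 7 were found in that table, and 0 of the 7 carried a name in the deposited array values of 23332 transcript clusters, the probe groups that the array reads as 1 transcript each.

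MHC class II molecules display peptides from proteins taken up by a cell to CD4+ T cells, and MHC class I molecules display peptides cut from the cell's own proteins to CD8+ T cells. Class II is made constantly by B cells, dendritic cells and many macrophages, and in the gut it can also be induced in epithelial cells, mainly by interferon-gamma. CIITA, the product of Ciita, switches on class II genes, and NLRC5 does the same for class I genes and for immunoproteasome and peptide transporter genes. Neither binds DNA directly: both are recruited by a shared complex of RFX, CREB and NF-Y proteins that sits on the X and Y boxes of their target promoters.

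The groups were germ-free Swiss Webster mice re-conventionalised with a microbiota (CONV), germ-free mice monocolonised with a Bifidobacterium UCC2003 strain that carries a mutant of the bacterial gene TadA (TadA mutant), germ-free mice monocolonised with Bifidobacterium UCC2003 itself (UCC2003), and germ-free controls (GF). RNA of the removed colon was read on Affymetrix Mouse Exon ST arrays, 4 per group and 16 in all. CONV is given as 5 animals in the series' design text, and 4 CONV arrays were analysed here. In the bacterium, tad genes build tight adherence pili, and the title of the series concerns a pilus-associated protein and colonic epithelial growth. Swiss Webster is an outbred stock, the H2 haplotypes of the animals were not analysed here, and the labels used here give no age, sex, litter or cage. The p-values therefore measure the spread between these arrays.

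Array columns of the gene-level table had medians of 5.92 to 6.06 log2 units and correlated with each other at 0.930 to 0.986, with 0 duplicates. Its columns carry the group but not the replicate number, so they are called column 1 to 4 within a group. By their labels these numbers have no order and pair nothing between groups. The authors kept in this table the genes with a p-value under 0.05 in their analysis of variance. It ran over UCC2003, TadA mutant and GF, so all 7 genes had been selected on these same arrays. Counts between those 3 groups are a description and not independent evidence. CONV did not enter that selection, but each comparison with CONV uses a group that did, and a spread shared with those groups. Counts in those comparisons are therefore not fully independent of the selection either. In the array values, 8 of 16 arrays had high levels of the pancreatic enzyme genes Cpa1 and Cel: 2 of CONV, 1 of TadA mutant, 2 of UCC2003 and 3 of GF. High meant above the midpoint of the lowest and highest mean of the 2 genes. TadA mutant replicate 4, counted as low, was at 6.99 log2 units, where the other low arrays were at 4.51 to 5.35. By their labels the gene-level columns cannot be tied to the 16 arrays, and a match by values was not tested. Of 12 listed markers of colonic epithelium, 1 was named: the Krt20 cluster lay at 11.30 to 11.71 log2 units in CONV, 11.02 to 11.10 in TadA mutant, 11.11 to 11.39 in UCC2003 and 11.10 to 11.25 in GF.

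The antigen presentation genes differed most between the colons with a conventional microbiota and the germ-free ones. In CONV against GF, 5 of the 7 genes rose (H2-Aa, H2-Ab1, Cd74, Psmb9 and Nlrc5), by 1.72-fold to 2.77-fold, where 3.46% of the 1793 genes were called in either direction and 2.73% were called higher. A gene was called when its adjusted p was under 0.05 in limma's moderated test. Benjamini-Hochberg adjustment ran over 35860 tests because of the authors' selection. That number does not correct the means or the spread of the selected genes. The median difference of the 7 genes was 1.30 log2 units, beside -0.01 over all genes of the table. In all 7 the lowest CONV column was above the highest GF column, a separation seen in 9.7% of the table's genes. With p-values adjusted over the table's genes alone, all 7 passed, as did 9.76% of the table's genes in that direction.

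**Figure D1:**
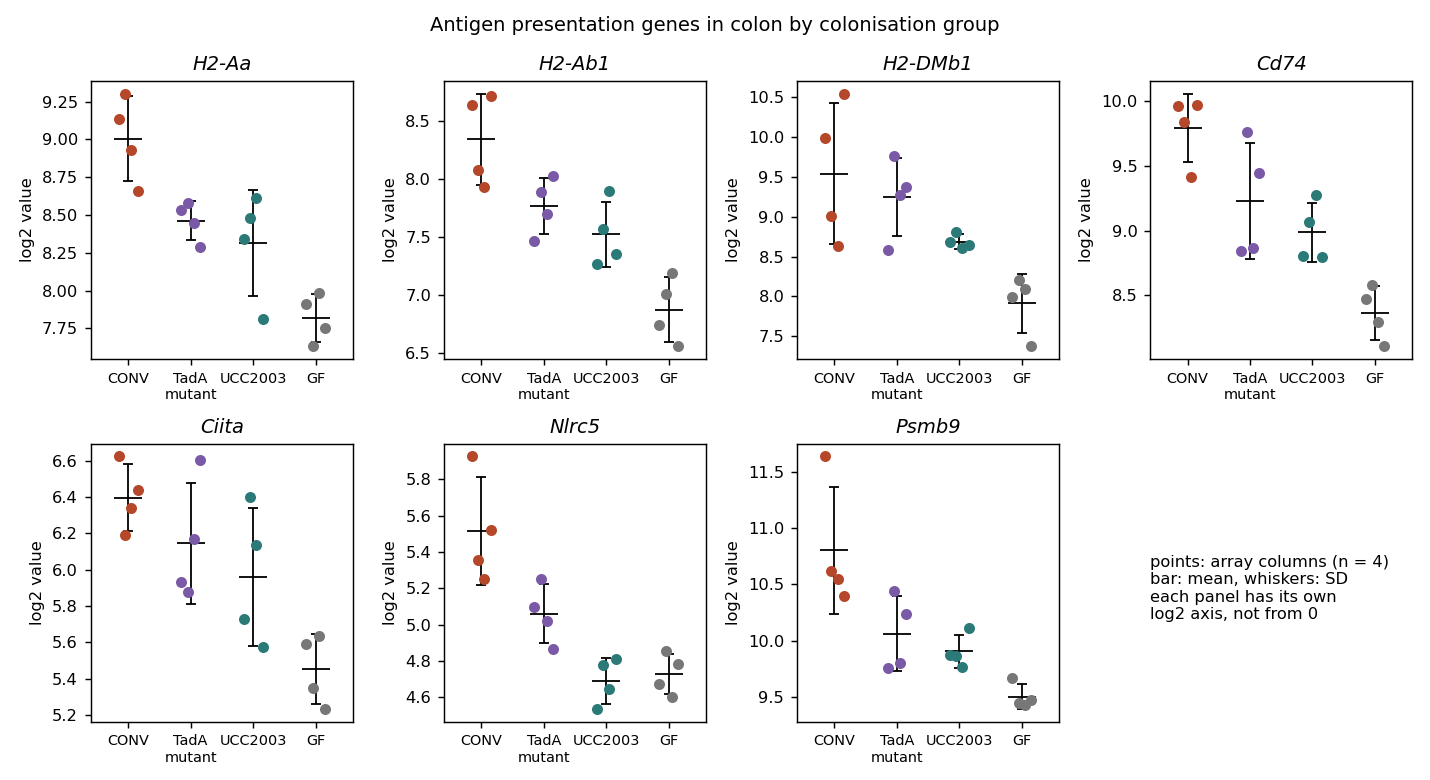
Log2 value of each gene (vertical axis, its own scale in each panel and not from 0) in each array column of CONV, TadA mutant, UCC2003 and GF (horizontal axis). Points are columns, the bar is the group mean and the whiskers are the SD (n = 4 columns). All CONV points lie above all GF points in each of the 7 panels, and the UCC2003 points of Nlrc5 overlap with those of GF.

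H2-Aa (ENSMUSG00000036594) encodes the alpha chain of the class II molecule I-A, and lies at chr17:34282744-34287823 in GRCm38.p6. Its log2 values were 9.13, 9.30, 8.93 and 8.66 in the CONV columns, against 7.91, 7.63, 7.98 and 7.75 in the GF columns. They were 8.53, 8.58, 8.44 and 8.29 in the TadA mutant columns, against 8.34, 8.48, 8.61 and 7.81 in the UCC2003 columns. CONV stood above every other column of the 16, and 1 UCC2003 column lay within the GF range while the other 3 lay above it. The difference of CONV minus GF was 1.19 ± 0.17 log2 units (SE, adjusted p = 0.00356), or 2.28-fold.

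H2-Ab1 (ENSMUSG00000073421), at chr17:34263227-34269418, encodes the beta chain that pairs with the H2-Aa product. It measured 8.64, 8.07, 7.93 and 8.72 log2 units in CONV, against 6.74, 7.01, 7.18 and 6.55 in GF. The TadA mutant columns had 7.47, 7.89, 7.69 and 8.02, against 7.26, 7.57, 7.90 and 7.35 in the UCC2003 columns. Every colonised column was above every GF column, and the lowest CONV column lay within the TadA mutant range. H2-Ab1 rose in CONV by 1.47 ± 0.20 log2 units over GF (SE, adjusted p = 0.00321), or 2.77-fold. Fitted on the 8 columns of CONV and GF alone, the same difference had an adjusted p of 0.0755.

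Cd74 (ENSMUSG00000024610) encodes the invariant chain, which fills the class II groove until the molecule meets its peptides, and lies at chr18:60803849-60812652. Its values were 9.96, 9.84, 9.41 and 9.97 log2 units in CONV, against 8.47, 8.58, 8.29 and 8.10 in GF. Those of the TadA mutant columns were 8.84, 9.76, 8.87 and 9.45, against 8.80, 9.07, 9.27 and 8.80 in UCC2003. No colonised column overlapped with GF, and the TadA mutant columns fell into a higher and a lower pair. CONV exceeded GF by 1.43 ± 0.20 log2 units (SE, adjusted p = 0.00356), or 2.70-fold.

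H2-DMb1 (ENSMUSG00000079547) encodes a beta chain of H2-DM, which exchanges the remnant of the invariant chain for peptides, and lies at chr17:34153191-34160229. It has a close neighbouring copy, H2-DMb2, and whether the probes tell the copies apart was not tested. Its values were 9.99, 9.001, 8.63 and 10.54 log2 units in CONV, against 7.99, 8.21, 8.09 and 7.37 in GF. In the TadA mutant columns it had 8.58, 9.76, 9.27 and 9.37, against 8.69, 8.81, 8.60 and 8.64 in UCC2003. The groups with a microbe did not overlap with GF, and CONV was the most scattered group, with an SD of 0.88 beside 0.09 in UCC2003. The difference of CONV minus GF was the largest of the 7 genes at 1.62 ± 0.34 log2 units, or 3.08-fold, and did not pass (adjusted p = 0.0957). Without CONV column 3 it was 1.93 and passed (adjusted p = 0.0196).

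Ciita (ENSMUSG00000022504), at chr16:10480014-10531064, is the master regulator of the class II genes. Its log2 values were 6.62, 6.19, 6.34 and 6.44 in CONV, against 5.59, 5.35, 5.64 and 5.23 in GF. The TadA mutant columns had 5.93, 5.88, 6.17 and 6.60, against 5.73, 6.40, 6.14 and 5.57 in UCC2003. CONV and TadA mutant lay wholly above GF, and 1 UCC2003 column lay within the GF range. CONV exceeded GF by 0.94 ± 0.19 log2 units, or 1.92-fold, which did not pass (adjusted p = 0.0639). It passed without UCC2003 column 2 (adjusted p = 0.0441) or TadA mutant column 4 (adjusted p = 0.0368), which enter only the shared estimate of spread. It also passed after quantile normalisation (adjusted p = 0.0401), with a trend and robust prior (adjusted p = 0.0470) and with the genes of lowest level left out (adjusted p = 0.0488).

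Nlrc5 (ENSMUSG00000074151), the class I counterpart of Ciita, lies at chr8:94434335-94527272. It measured 5.93, 5.35, 5.25 and 5.52 log2 units in CONV, against 4.67, 4.86, 4.60 and 4.78 in GF. The TadA mutant columns had 5.10, 5.25, 5.02 and 4.86, against 4.54, 4.78, 4.64 and 4.81 in UCC2003. UCC2003 overlapped with GF, with 1 column below the GF range, and the lowest TadA mutant column was level with the highest GF column. Nlrc5 rose in CONV by 0.79 ± 0.13 log2 units over GF (SE, adjusted p = 0.0235), or 1.72-fold. The call was lost without any 1 of the 4 GF columns (adjusted p = 0.0507 to 0.101) or without CONV column 4 (adjusted p = 0.0618). It was also lost without moderation of the spread (adjusted p = 0.0619) and with CONV and GF fitted alone (adjusted p = 0.311).

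Psmb9 (ENSMUSG00000096727) encodes a catalytic subunit that replaces a constitutive one when the immunoproteasome forms, and lies at chr17:34182030-34187330. Its values were 11.64, 10.62, 10.55 and 10.40 log2 units in CONV, against 9.66, 9.45, 9.42 and 9.47 in GF. The TadA mutant columns had 9.76, 10.44, 9.80 and 10.24, against 9.87, 9.86, 9.76 and 10.11 in UCC2003. CONV column 1 stood about 1 log2 unit above the other CONV columns, and every colonised column was above GF. Psmb9 rose in CONV by 1.30 ± 0.22 log2 units over GF (SE, adjusted p = 0.0222), or 2.47-fold. Leaving out any 1 GF column (adjusted p = 0.0560 to 0.0897) or CONV column 2 (adjusted p = 0.0505) ended the call. So did a fit without moderation (adjusted p = 0.102), quantile normalisation (1.01 log2 units, adjusted p = 0.184) and a fit on CONV and GF alone (adjusted p = 0.247).

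For 3 of the 7 genes a promoter was available, and these are shown because the 3 genes share the regulators described above. Each line holds the 150 bases that end 1 base before the start of the gene, 5′ to 3′ on the gene's strand, from RefSeq in GRCm38.p6. Capitals mark GATTGG, the core of a Y box, and GCAAC, one end of an X box, which on the opposite strand reads GTTGC.
H2-Aa (chr17:34287824-34287973, minus strand): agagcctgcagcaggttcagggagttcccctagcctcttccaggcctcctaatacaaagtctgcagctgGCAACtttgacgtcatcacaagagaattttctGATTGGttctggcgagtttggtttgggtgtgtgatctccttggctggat
H2-DMb1 (chr17:34153041-34153190, plus strand): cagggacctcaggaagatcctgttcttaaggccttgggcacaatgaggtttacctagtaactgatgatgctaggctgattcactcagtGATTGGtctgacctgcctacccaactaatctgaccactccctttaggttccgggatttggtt
Psmb9 (chr17:34187331-34187480, minus strand): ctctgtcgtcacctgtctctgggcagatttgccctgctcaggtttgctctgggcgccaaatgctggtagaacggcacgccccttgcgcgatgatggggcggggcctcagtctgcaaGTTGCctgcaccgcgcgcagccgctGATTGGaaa
All 3 windows held GATTGG, at 49 to 44 bases upstream of the start in H2-Aa, 62 to 57 in H2-DMb1 and 9 to 4 in Psmb9. GCAAC stood at 81 to 77 bases upstream in H2-Aa and, on the opposite strand, at 34 to 30 in Psmb9, and these letters were not in the H2-DMb1 window. Only exact letters were searched, with no rule for the strand, order or spacing of the boxes. The H2-DMb1 window holds gtaac upstream of its GATTGG, with t in place of the first c of GCAAC. Of 32851 mouse promoter windows of 250 bases, searched on both strands, 14.6% held GATTGG and 29.9% held GCAAC. The interferon-stimulated response element and the gamma-activated site, searched as TTCNNNGAA, were in 0 of the 3 windows, and in 2.98% and 7.02% of all windows. A match is a description of the letters and not of a bound site.

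Monocolonisation was compared with GF next. In TadA mutant against GF, 0 of the 7 genes passed, as did 0% of the table's genes, and the median difference was 0.69 log2 units beside -0.01 over all genes. All 7 genes had an unadjusted p under 0.05, as did 21.6% of the table's genes in the same direction, and in all 7 the 4 TadA mutant columns lay above the 4 GF columns, as in 14.4% of the table. Adjusted over the table's genes alone, 5 passed, and 6.36% of the table did so. H2-DMb1 had the largest difference, 1.33 ± 0.34 log2 units (SE), followed by H2-Ab1 at 0.90 ± 0.20, Cd74 at 0.87 ± 0.20 and Ciita at 0.69 ± 0.19. The differences were 0.64 ± 0.17 for H2-Aa, 0.56 ± 0.22 for Psmb9 and 0.33 ± 0.13 for Nlrc5.

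In UCC2003 against GF, 0 of the 7 passed in limma, beside 0.279% of the table's genes, and 5 had a higher mean with an unadjusted p under 0.05, as 25.1% did. Adjusted over the table's genes alone, 4 passed, beside 18.6% of the table. The median difference was 0.51 log2 units, beside -0.10 over all genes. H2-Ab1, H2-DMb1, Cd74 and Psmb9 had every UCC2003 column above every GF column, which was the case for 18.4% of the table's genes. Their differences were 0.65 ± 0.20, 0.77 ± 0.34, 0.62 ± 0.20 and 0.40 ± 0.22 log2 units (SE). H2-Aa, at 0.49 ± 0.17, and Ciita, at 0.51 ± 0.19, overlapped with GF in 1 column each. Nlrc5 was the exception in direction, at -0.04 ± 0.13 log2 units, and its sign turned to 0.02 without UCC2003 column 1. All 3 comparisons against GF rest on 1 set of 4 GF columns.

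**Figure D2:**
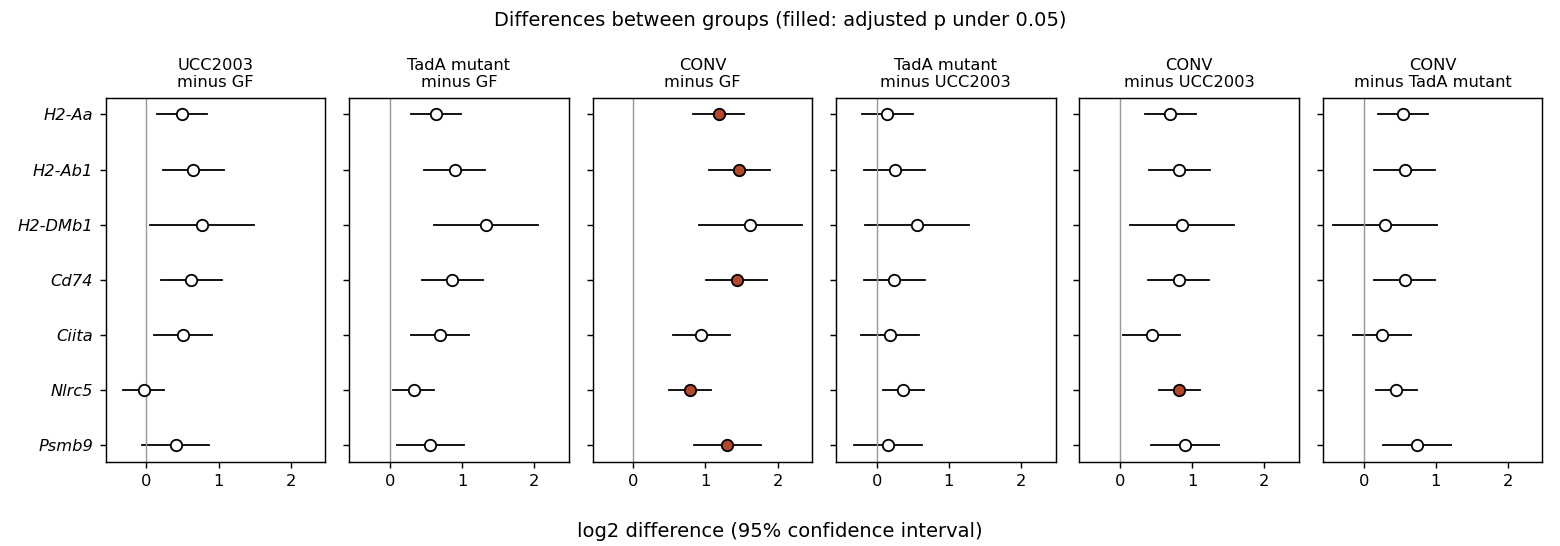
Difference of group means in log2 units (horizontal axis, with the 95% confidence interval as a line) for each gene (vertical axis), in 6 panels, 1 per comparison. Filled points passed an adjusted p of 0.05. The 5 filled points of CONV minus GF and that of Nlrc5 in CONV minus UCC2003 are the only ones, and 6 of 7 intervals of TadA mutant minus UCC2003 include 0.

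The TadA mutant and its parent strain were then set against each other. Of the 7 genes 0 passed in limma, beside 0.223% of the table's genes, and 0 passed when adjusted over the table's genes alone, beside 3.12% called higher. With an unadjusted p under 0.05, 1 gene was higher in TadA mutant, beside 19% of the table. All 7 means were higher in TadA mutant, as were 55.7% of the table's, with a median difference of 0.24 log2 units beside 0.05 over all genes. Nlrc5 was the gene whose columns did not overlap, a separation that 13.6% of the table's genes showed, and its difference was 0.37 ± 0.13 log2 units (SE, 95% interval 0.08 to 0.65, adjusted p = 1). For the other 6 genes the interval ran from -0.20 to 0.50 in H2-Aa, -0.18 to 0.67 in H2-Ab1, -0.16 to 1.28 in H2-DMb1, -0.18 to 0.67 in Cd74, -0.21 to 0.58 in Ciita and -0.31 to 0.63 in Psmb9. For H2-Aa the sign depended on 1 column: without UCC2003 column 4 the difference was -0.02.

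Whether a full microbiota differed from a single strain was tested directly. In CONV against UCC2003, 1 of the 7 genes passed, beside 4.13% of the table's genes: Nlrc5 rose by 0.82 ± 0.13 log2 units (SE, adjusted p = 0.0166). That call was lost without UCC2003 column 1 (adjusted p = 0.0722) or column 3 (adjusted p = 0.0661), after quantile normalisation (adjusted p = 0.0529) and with CONV and UCC2003 fitted alone (adjusted p = 0.240). Adjusted over the table's genes alone, 5 passed, beside 15.1% called higher. The median over the 7 genes was 0.82 log2 units, beside 0.09 over all genes, and H2-Aa, H2-Ab1, Cd74, Psmb9 and Nlrc5 had every CONV column above every UCC2003 column, as 13.4% of the table's genes did. In CONV against TadA mutant, 0 of the 7 passed, beside 1.28% of the table's genes, and the median was 0.55 log2 units beside 0.01. There 5 were higher with an unadjusted p under 0.05, beside 15.7% of the table, and 3 passed when adjusted over the table's genes alone, beside 6.53%. H2-Aa alone did not overlap there, with 8.81% of the table's genes showing such a separation, and its difference was 0.55 ± 0.17 (SE, adjusted p = 0.907). Psmb9 had the largest difference in that comparison, 0.74 ± 0.22, and Ciita the smallest, 0.25 ± 0.19. For H2-DMb1 it was 0.29 ± 0.34, and -0.04 without CONV column 4.

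In 6 of the 7 genes the group means ran in the order CONV, TadA mutant, UCC2003, GF, and in Nlrc5 UCC2003 was last. None of the neighbouring pairs in these orders passed. The share of genes in the gene-level table with the same order was not counted. That table holds only genes chosen for differences among TadA mutant, UCC2003 and GF. With the group differences left in, the 7 genes correlated with each other at 0.579 to 0.941, so their orders are not independent. UCC2003 and TadA mutant columns overlapped in the 6 genes other than Nlrc5, and CONV and TadA mutant columns overlapped in the 6 other than H2-Aa. At the lowest step, UCC2003 did not overlap with GF in H2-Ab1, H2-DMb1, Cd74 and Psmb9, and did in H2-Aa, Ciita and Nlrc5.

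**Figure D3:**
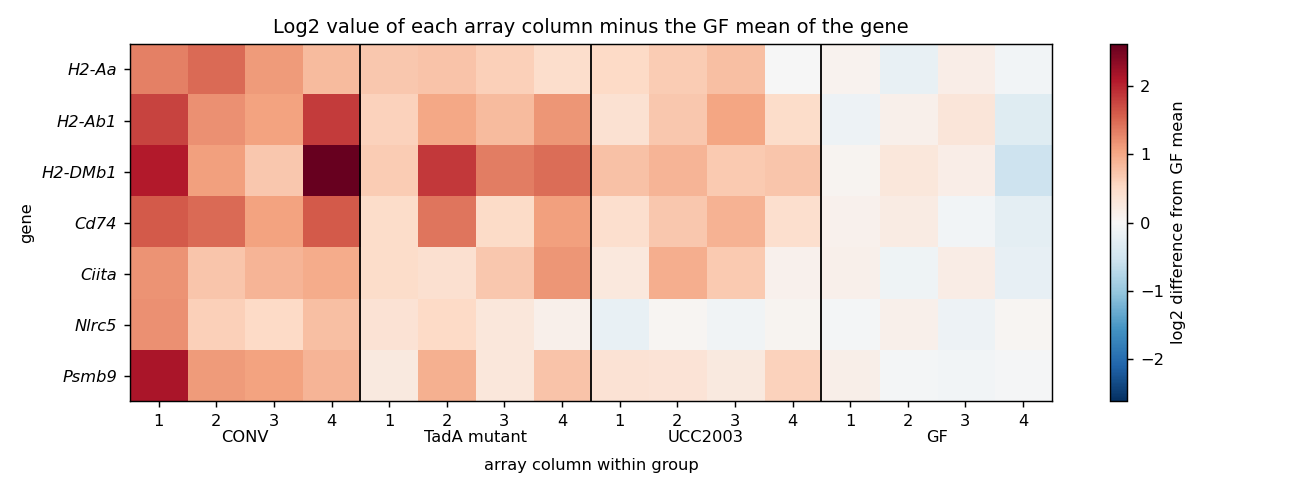
Log2 value of each gene (rows) in each of the 16 array columns (CONV, TadA mutant, UCC2003 and GF from left to right) minus the mean of the 4 GF columns of that gene, by colour. The largest value is H2-DMb1 in CONV column 4, at 2.62, and Nlrc5 in the UCC2003 columns is close to 0.

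The genes did not all vary together within groups. After the group means were taken out, H2-Ab1 correlated with H2-DMb1 at 0.789, with Cd74 at 0.710 and with Ciita at 0.592, and Psmb9 with Nlrc5 at 0.642. H2-Aa stood apart, at 0.0446 with H2-Ab1, the gene of its partner chain, and -0.225 with H2-DMb1. CONV column 4 shows the split: it was the lowest of its group for H2-Aa and the highest for H2-Ab1 and H2-DMb1. These correlations are over 16 columns that share the normalisation of 1 table, and they are given as a description.

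Other genes of the table were ranked by Pearson correlation with these patterns over the 16 columns, with the group differences left in. Genes with predicted, clone or RIKEN names were left out of the ranking. Nearest to the mean of H2-Aa, H2-Ab1, H2-DMb1 and Cd74 were C1qb at 0.930, a complement gene of macrophages, Gbp8 at 0.906 and Gvin1 at 0.902, both interferon-induced GTPase genes, Cyba at 0.863, an oxidase subunit of phagocytes, and Sulf2 at 0.861. Nearest to the mean of Psmb9 and Nlrc5 were Gbp2b at 0.917, Gbp8 at 0.911, Samhd1 at 0.885, Lgmn at 0.855 and Epsti1 at 0.849. Nearest to Ciita were the leukocyte genes Cd52 at 0.856, Ccr6 at 0.856, Lyn at 0.840, Ms4a1 at 0.822, which encodes the B cell antigen CD20, and Cd48 at 0.819. With the group means taken out, the correlations with the class II mean were 0.755 for C1qb and 0.650 for Gbp8, but 0.474 for Gvin1, 0.378 for Sulf2 and 0.355 for Cyba. With the mean of Psmb9 and Nlrc5 they ran from 0.305 for Lgmn and 0.396 for Epsti1 to 0.782 for Samhd1, and with Ciita from 0.560 for Ms4a1 to 0.715 for Ccr6.

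Few further genes of the pathway carried a name. Of 18 other class II genes listed, 3 were measured, and 2 rose in CONV against GF: Cd86, a costimulatory ligand for T cells, by 1.08 ± 0.15 log2 units (SE, adjusted p = 0.00412), and Lgmn, a lysosomal protease, by 0.98 ± 0.13 (adjusted p = 0.00321). Cd86 had 4.43, 5.06, 4.69 and 4.91 log2 units in CONV, against 3.55, 3.47, 3.81 and 3.92 in GF, and the groups did not overlap. Cd40, a costimulatory receptor, differed by 0.12 ± 0.10 on its cluster (adjusted p = 0.687). With CONV and GF fitted alone, neither Cd86 (adjusted p = 0.0979) nor Lgmn (adjusted p = 0.112) passed.

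Among class I genes, 3 of 31 listed were measured, and H2-Q1, a class Ib gene, rose in both tables. It had 8.46, 8.80, 8.52 and 8.63 log2 units in the CONV columns of the gene-level table, against 7.74, 7.82, 8.19 and 7.99 in GF, with no overlap. The rise was 0.67 ± 0.11 there (SE, adjusted p = 0.0173) and 0.51 ± 0.08 on its cluster (adjusted p = 0.00546), where 1.89% of 23332 clusters were called. In the gene-level table it was lost without GF column 1 (adjusted p = 0.0871), GF column 2 (adjusted p = 0.0777) or CONV column 2 (adjusted p = 0.0737), after quantile normalisation (adjusted p = 0.0603), and in both tables with CONV and GF fitted alone (adjusted p = 0.338, and 0.0964 on the cluster). H2-M2 was at 0.36 ± 0.13 (adjusted p = 0.199) and H2-Q10 at 0.19 ± 0.19 (adjusted p = 0.747). H2-Q genes are closely similar to each other, and whether the probes tell them apart was not tested.

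No other proteasome gene passed in CONV against GF among 3 measured of 45 listed: Psme2, an activator subunit, was at 1.09 ± 0.51 log2 units (SE, adjusted p = 0.380), Psma2, a constitutive core subunit, at 0.19 ± 0.10 (adjusted p = 0.460) and Psmb11, the thymic subunit, at -0.45 ± 0.29 (adjusted p = 0.569). Of 19 other regulators 5 were measured, and Irf8, a transcription factor of myeloid and B cells, rose by 0.71 ± 0.14 log2 units on its cluster (SE, adjusted p = 0.0170). Irf8 had 7.58, 7.42, 7.14 and 6.83 in CONV, against 6.65, 6.38, 6.58 and 6.52 in GF, and the call was lost without GF replicate 2 (adjusted p = 0.0580) or CONV replicate 2 (adjusted p = 0.0640), and with CONV and GF fitted alone (adjusted p = 0.164). Ifng, the gene of interferon-gamma, was at 0.12 ± 0.16 (adjusted p = 0.820), Socs1, a feedback inhibitor of its signal, at 0.08 ± 0.13 (adjusted p = 0.851) and Creb1 at -0.21 ± 0.16 (adjusted p = 0.658). Nfyc, an NF-Y subunit, was lower in every CONV array than in every GF array, at -1.78 ± 0.48, which did not pass (adjusted p = 0.0825) and did without CONV replicate 4 (adjusted p = 0.0446).

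Interferon-induced genes were measured for 10 of 45 listed, and 2 of the 10 rose in CONV against GF. Cxcl9, a T cell attracting chemokine, had 8.002, 7.42, 6.70 and 7.13 log2 units in CONV, against 4.99, 5.42, 5.18 and 5.37 in GF, and rose by 2.07 ± 0.22 (SE, adjusted p = 0.000114). Gbp8 rose by 1.27 ± 0.17 (adjusted p = 0.00321), and had an adjusted p of 0.0755 with CONV and GF fitted alone. Stat2, a transcription factor of the interferon signal, was at 0.74 ± 0.14 (adjusted p = 0.0558) and passed under 7 of 23 alternatives, among them quantile normalisation (adjusted p = 0.0252) and without UCC2003 column 4 (adjusted p = 0.0289) or CONV column 3 (adjusted p = 0.0433). Gbp4 was at 1.22 ± 0.28 (adjusted p = 0.195), and passed under 2 of 23, without CONV column 3 (adjusted p = 0.0196) and adjusted over the table's genes alone (adjusted p = 0.00973). In the monocolonised groups the Cxcl9 cluster had 5.35, 5.18, 5.23 and 5.81 in TadA mutant, against 5.28, 5.34, 5.34 and 5.40 in UCC2003, and 7 of these 8 arrays lay within the GF range. Of the 10 interferon-induced genes 0 passed against GF in either group, and 0 between them. Stat2 was at 0.50 ± 0.14 log2 units (SE) in TadA mutant and 0.56 ± 0.14 in UCC2003, Gbp8 at 0.53 ± 0.17 and 0.37 ± 0.17, and Gbp4 at 0.49 ± 0.28 and 0.70 ± 0.28, each minus GF. Ifit3, named after its values were seen, was at -0.89 ± 0.52 in TadA mutant and 1.26 ± 0.52 in UCC2003 minus GF, and at -2.15 ± 0.52 in TadA mutant minus UCC2003 (adjusted p = 0.718). In CONV minus GF, Ifit3 was at -0.18 ± 0.52.

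Markers of the cells that carry class II were read beside these genes. In whole colon RNA, more cells of a type and more RNA per cell cannot be told apart. Of 17 listed B cell markers 8 were measured, all in the gene-level table. All 8 had a higher mean than in GF in CONV, TadA mutant and UCC2003, by medians of 0.93, 0.79 and 0.70 log2 units, and 0 passed in each comparison. A higher mean than in GF was found for 48.6%, 49.4% and 41.4% of the table's genes in the same comparisons, but the table itself holds only genes chosen for differences among TadA mutant, UCC2003 and GF. Their mean level ran from 5.62 to 6.51 in CONV, 5.29 to 6.03 in TadA mutant and 5.37 to 6.08 in UCC2003, against 4.89 to 5.11 in GF, so no colonised column overlapped with GF. Of the table's single genes, 9.7% lay wholly above GF in CONV, 14.4% in TadA mutant and 18.4% in UCC2003. The share among means of 8 genes was not counted. In TadA mutant against UCC2003, 3 of the 8 were higher and the median was -0.05.

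The mean level of H2-Aa, H2-Ab1, H2-DMb1 and Cd74 ran from 8.72 to 9.47 in CONV, 8.36 to 8.997 in TadA mutant, 8.15 to 8.60 in UCC2003 and 7.45 to 7.89 in GF. The column with the highest class II level of all, CONV column 4 at 9.47, also had the highest B cell level, 6.51. TadA mutant column 2 went the other way, with the highest class II level of its group, 8.997, and the lowest B cell level of its group, 5.29. The part of the B cell markers in the class II differences was not tested.

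**Figure D4:**
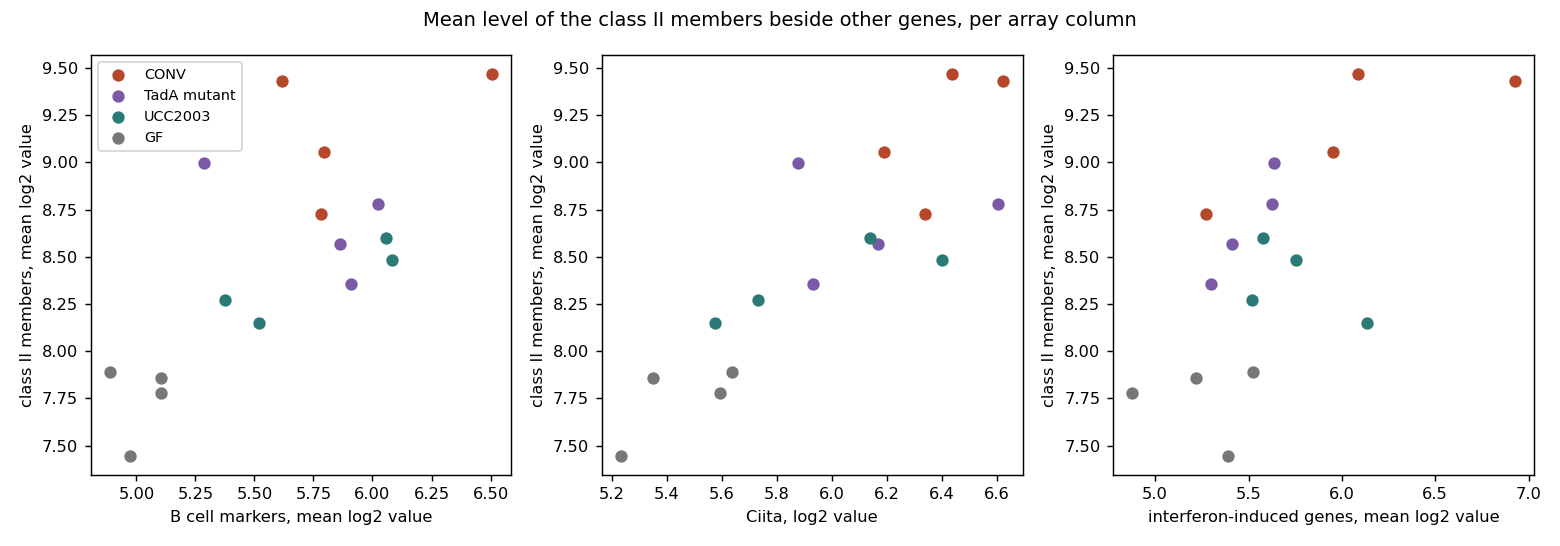
Mean log2 value of H2-Aa, H2-Ab1, H2-DMb1 and Cd74 (vertical axes) in each array column beside the mean log2 value of 8 B cell markers (left), the log2 value of Ciita (middle) and the mean log2 value of 5 interferon-induced genes of the same table (right). Points are the 16 columns, coloured by group. The 4 GF points are lowest on the vertical axes, and CONV column 4 is highest on the vertical axis and for the B cell markers.

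Other cell types gave fewer named genes. Of 19 listed dendritic cell and macrophage markers 3 were measured: in CONV against GF, Cd14, a receptor for bacterial lipopolysaccharide, rose by 1.67 ± 0.12 log2 units (SE, adjusted p = 5.18e-06), and Csf1r, a macrophage growth factor receptor, by 0.71 ± 0.13 (adjusted p = 0.0471). The third, Xcr1 of cross-presenting dendritic cells, was at 0.22 ± 0.18 (adjusted p = 0.688). The T cell receptor complex gene Cd3g rose by 1.07 ± 0.19 (adjusted p = 0.0369), and Icos was at 0.51 ± 0.21 (adjusted p = 0.294), of 19 T and NK markers listed. The calls of Csf1r and Cd3g were lost under 17 and 11 of 23 alternatives. Of 12 listed smooth muscle genes 8 were measured, 5 in the gene-level table and 3 as clusters. The mean level of the 5 was 7.90 to 8.15 in CONV, with 8.38 to 9.03 in TadA mutant, 8.87 to 9.11 in UCC2003 and 8.08 to 8.55 in GF, and 0 of the 5 passed in CONV against GF, nor did any of the 3 clusters, 1 of which was higher. Against UCC2003, 3 of the 5 genes fell in CONV, beside 4.13% of the table's genes called in either direction, and 2 of the 3 clusters fell. Against TadA mutant 1 of the 5 fell, beside 1.28%, and 2 of the 3 clusters. The share of all clusters called in these comparisons was not counted, and genes and clusters were adjusted over different numbers of tests. The part of these cell types in the antigen presentation differences was not tested.

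Of 8 listed lymphoid follicle genes 4 were measured, and 0 passed against GF in either table. In the gene-level table Glycam1, Madcam1 and Cxcl13 each had a higher mean than in GF in all 3 colonised groups. The Madcam1 cluster of the array values did not share that direction in UCC2003 against GF, at -0.02 ± 0.14 log2 units (SE), where the gene-level value was 0.34 ± 0.21, and was at 0.53 ± 0.14 in CONV against GF (adjusted p = 0.0920). In the gene-level table, CONV against GF, Glycam1, a ligand for lymphocyte homing, was at 1.39 ± 0.31 log2 units (SE, adjusted p = 0.148) and Madcam1, the gut homing addressin, at 0.88 ± 0.21 (adjusted p = 0.212). Ltb, a lymphotoxin gene, was at 0.44 ± 0.13 on its cluster (adjusted p = 0.120).

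Without the 8 arrays high in Cpa1 and Cel, CONV against GF rests on 2 arrays against 1, and the lone GF array is assumed to vary like the arrays of the other groups. TadA mutant replicate 4, at 6.99 log2 units for Cpa1 and Cel, was kept in that fit. There the Cxcl9 cluster was at 2.36 log2 units (adjusted p = 0.320), Cd14 at 1.42 (adjusted p = 0.137), Irf8 at 0.71 (adjusted p = 0.496) and H2-Q1 at 0.66 (adjusted p = 0.353). All 4 kept their direction, and with 1 GF array the p-values say little about the calls.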

How the data were processed

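Mouse colon RNA was hybridised to Affymetrix Mouse Exon ST arrays, 4 per group. Per the submitters' processing notes, Affymetrix Expression Console 1.1, RMA and Partek were used, on mm9. The deposited array values are log2 intensities of 23332 transcript clusters, of which 1973 have 1 symbol in the authors' deposited table. The gene-level table deposited by the authors holds log2 values of 1793 genes, with a normalisation not given in the sources used here, and, per gene, a p-value for UCC2003, TadA mutant and GF, named ANOVA in the sheet. All 1793 deposited p-values were under 0.05, and those of the 7 genes were 0.00113 to 0.0354 in the authors' deposited table. The design text names Subio Platform.

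One coefficient per group was fitted to all 16 columns of each table with limma 3.58.1 in R 4.3.3 (prior degrees of freedom 3.77 in the gene-level table), two-sided. Benjamini-Hochberg adjustment ran over the 23332 clusters, or over 35860 tests in the gene-level table, which is 1793 divided by 0.05, the share expected to pass by chance. That number assumes that every gene of the table passed by chance. It is larger than the 23332 clusters and is not a count of genes measured. The procedure was tested on simulated data for CONV minus GF, with 200 of 1793 genes changed. At a change of 0.5 log2 units 33 of the 200 were recovered, and at 1 log2 unit 168, with 0 false calls. Most changes of 0.5 log2 units were thus missed, and a gene that did not pass may still differ. The number of arrays limits the precision. All 7 genes were named, as were all measured genes of the antigen presentation lists. So were up to 4 genes per further list by smallest moderated F p-value, and the 5 most correlated genes per pattern. That last ranking left out predicted, clone and RIKEN names. Cxcl13 was named outside these rules to complete a count, and Ifit3 after its values were seen. Krt20, Cpa1 and Cel were named as checks of the tissue. The genes and the 12 lists were chosen with earlier results of these data known. Promoters were matched by symbol for 3 of 7 genes. Gene positions are RefSeq's in GRCm38.p6 and not the arrays' mm9. Alternatives were the adjustment, moderation, samples fitted, scaling, a filter on low values, each column left out, a replicate block and the arrays with pancreatic transcripts.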

Additional observations from a re-analysis of the deposited data

Results flagged for a closer look

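Of 100 groups of 4 arrays checked for an array far from the others, 3 were picked out, and chance picks about 5% of such groups. Xcr1, a chemokine receptor of dendritic cells, had 1 CONV array at 4.89 log2 units, with the other 3 between 5.57 and 5.60, a gap of 0.965 of the group's range. The same cluster had 1 UCC2003 array at 5.45, above the other 3 at 5.20 to 5.24, a gap of 0.835 of the range. Ltb, a lymphotoxin gene, had 1 GF array at 5.39, below the other 3 at 5.70 to 5.74, a gap of 0.891 of the range. None of the 28 groups of the 7 antigen presentation genes was picked out.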

How the results depend on the processing

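Adjusted over the table's 1793 genes alone, 7 of the 7 genes passed in CONV against GF, 5 in TadA mutant against GF, 4 in UCC2003 against GF, 5 in CONV against UCC2003, 3 in CONV against TadA mutant and 0 in TadA mutant against UCC2003. In CONV against GF 3 passed without moderation of the spread and 2 with the compared groups fitted alone. In CONV against UCC2003, 0 passed with the compared groups alone and 0 after quantile normalisation. Leaving out 1 column gave 3 to 6 in CONV against GF, 0 to 1 in CONV against UCC2003 and 0 in the other 4 comparisons. The median difference in CONV against GF ran from 1.14 to 1.39 across these. Nlrc5 in UCC2003 against GF was at 0.0675 after quantile normalisation and at -0.0783 to 0.0156 with 1 column left out, above 0 without UCC2003 column 1 or GF column 2. With 1 column left out, H2-Aa in TadA mutant against UCC2003 ran from -0.0187 to 0.248, below 0 without UCC2003 column 4, and H2-DMb1 in CONV against TadA mutant from -0.0411 to 0.596, below 0 without CONV column 4. On clusters in CONV against GF, Ifng ran from -0.0152 to 0.223 with 1 array left out, below 0 without GF replicate 2. Without the 8 arrays high in pancreatic transcripts Cd40 was at -0.0386, Psme2 at -0.64, Psma2 at -0.12 and Socs1 at -0.0244. The cause was not tested. No paired analysis was run for the 7 genes because their columns carry no replicate number. With the replicate number as a block the H2-Q1 cluster was at 0.51 (adjusted p = 0.0130) and Irf8 at 0.71 (adjusted p = 0.0403). With group means taken out, same-numbered arrays correlated at -0.305 to 0.206. Their mean was -0.0457, beside 0.0152 for other arrays of different groups. The labels do not say what same-numbered arrays share, and these correlations cannot settle it. The precision is limited by 4 arrays per group.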
